A study of Mus musculus with 24 samples.

Results

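Methionine, one-carbon and serine metabolism was followed in the mouse ovary through 10 genes, Bhmt, Bhmt2, Mat2a, Ahcy, Cbs, Mthfd1, Mthfd2, Shmt1, Shmt2 and Psph. All probe sets annotated to 1 of these symbols alone were taken, a probe set being a set of short oligonucleotides against a transcript. This gave 20 of the 22690 probe sets of the array, for 9 of the 10 genes. The annotation used here held no probe set for Mat2a, which was not analysed. Line FL1 had been selected for an index of litter size and litter weight at birth, up to generation 130. Line DUKsi, from the same genetic stock, was unselected and had been inbred by full-sib mating. Ovaries came from virgin females of both lines, 6 to 9 weeks old and in metestrus, and both ovaries of an animal were processed together. There were 6 pools per line with 2 arrays each, and a pool held 5 animals by the methods but 6 by the labels. Since each condition is a single line, the effects of selection, drift and inbreeding cannot be told apart. Signals are linear MAS5 values, an estimate of transcript level from the array's intensities.

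In the methionine cycle, methyl groups of methionine are passed on to acceptors such as DNA, proteins and lipids, and homocysteine is left. Homocysteine is either methylated again to methionine, with betaine or folate as the donor, or joined to serine on the way to cysteine and glutathione. Serine also feeds one-carbon units into the folate cycle, which supplies purine and thymidylate synthesis. Oocytes and their surrounding cells depend on these pathways for DNA synthesis and methylation.

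The pools differed between the lines in RNA integrity and in cell markers. The 3' to 5' ratio of beta-actin, which becomes higher as RNA degrades, was 1.32 to 2.45 in FL1 pools and 1.18 to 1.32 in DUKsi pools (exact permutation test, two-sided, p = 0.00216, the lowest value possible with 6 pools a line), and FL1 pool 3 had the highest. Of 9 measured markers of luteal cells 4 rose in FL1 and 0 fell, and their summed signal was 62565 to 73391 in FL1 and 33072 to 49829 in DUKsi. Of 8 measured markers of granulosa cells 0 rose and 2 fell, with sums of 32323 to 39078 in FL1 and 39199 to 45977 in DUKsi. Each marker was counted by its brightest probe set. A dimmer probe set, not counted, had an adjusted p under 0.01 in the luteal marker Star (1 of 3 probe sets). The same was seen in the granulosa markers Inhbb (1 of 2) and Nr5a2 (1 of 4). Of 9 oocyte markers Zp3, a gene of the egg coat, fell, with a median of 1289 in FL1 pools and 1790.5 in DUKsi pools (log2 fold change -0.49, adjusted p = 0.00106). Among markers of other cells 1 of 7 of smooth muscle fell, Myl9 (-0.63, adjusted p = 7.21e-05), while the ratio of their summed signals was 0.9935. Of 7 endothelial markers 1 rose, Pecam1 (0.58, adjusted p = 0.00810). Of 7 markers of surface epithelium and mesothelium 1 rose, Upk3b (1.29, adjusted p = 0.000182). Their sums overlapped, at 2183 to 2586 in FL1 and 1251 to 3741 in DUKsi. Of 2 blood markers the dim Alas2 of red blood cells rose (2.01, adjusted p = 0.00782), and Hba-a1 had -0.36 (adjusted p = 0.655). In whole ovaries, fewer cells of a type and less RNA per cell cannot be told apart.

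At the homocysteine branch point the signal of Cbs was lower and that of Bhmt higher in every FL1 pool than in any DUKsi pool, whereas Ahcy, which lies just before it, overlapped between the lines. Log2 values of the 12 pools were compared with limma, and rose or fell stands for an adjusted p under 0.01, with Benjamini-Hochberg adjustment over 22626 probe sets. Of the 20 probe sets 2 fell, both of Cbs, and 0 rose, while 3 had an adjusted p under 0.05 and 5 an unadjusted p under 0.05. Over all probe sets 3.38% passed, 1.83% upward and 1.55% downward (413 and 351 probe sets, against 634 and 229 with arrays scaled to the same median). An adjusted p under 0.05 was found for 6.91% and an unadjusted p under 0.05 for 19.8% of all probe sets, and 2.32% passed with a difference of at least 1.5-fold, as both of Cbs did. The lines did not overlap in 4 of the 20, which were Bhmt, both of Cbs and Psph, and in 4.62% of all probe sets, 2.24% with FL1 above and 2.39% with FL1 below. The median log2 fold change was -0.067 over the 20 and -0.069 over all probe sets. Bhmt and the probe set 1425623_a_at of Cbs stand on the list that the study had drawn from these pools. Their differences are not independent evidence. The same holds for the other probe set of Cbs, which measures the same gene in the same pools.

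**Figure D1:**
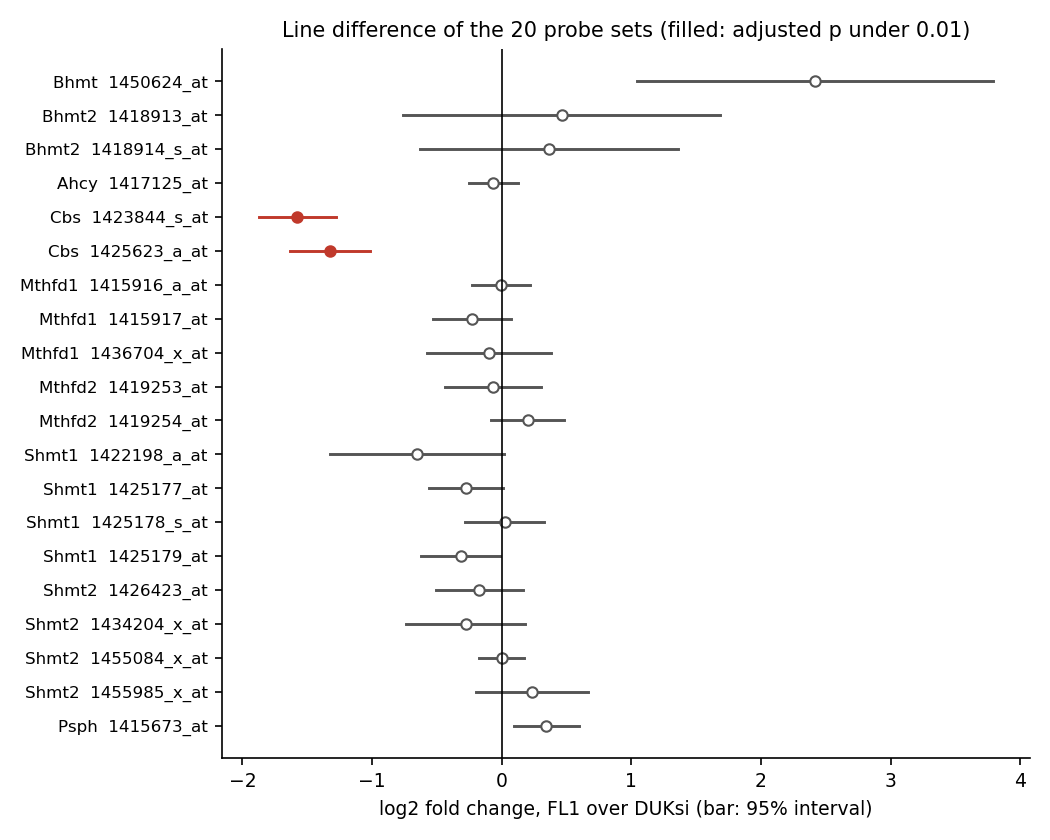
Log2 fold change, FL1 over DUKsi (x axis), of each of the 20 probe sets (y axis) with its 95% interval from limma as a bar, from 6 pools per line. Filled points have an adjusted p under 0.01. Both probe sets of Cbs lie at -1.58 and -1.33, Bhmt lies at 2.42 with an interval from 1.04 to 3.79, and Psph at 0.34.

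Bhmt encodes betaine-homocysteine methyltransferase, an enzyme best known from liver and kidney that makes methionine from homocysteine with a methyl group of betaine. Its probe set 1450624_at had signals of 2831, 2623, 1853, 2665, 1528.5 and 2498 in FL1 pools 1 to 6, against 1406, 749, 314, 703, 33.2 and 784 in DUKsi pools 1 to 6. No pool of one line reached the range of the other, but FL1 pool 5 and DUKsi pool 1 came close to each other. The means were 2333 (SD 519) in FL1 and 665 (SD 468) in DUKsi. The log2 fold change was 2.42 with an SE of 0.647, and its adjusted p of 0.0336 did not pass. DUKsi pool 5 weighed most on this: without it the log2 fold change was 1.68 and the adjusted p 0.00200, and with each other pool left out Bhmt did not pass, at an adjusted p of up to 0.0684.

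DUKsi pools had a wider range of Bhmt on the log2 scale than FL1 pools, and this rested largely on DUKsi pool 5. The highest FL1 pool had 1.85 times the signal of the lowest. In DUKsi the ratio was 4.48 without pool 5, and 29.1 with that pool counted at 48.4, the level that 20% of all signals do not reach. On the log2 scale the SD between pools was 0.355 in FL1, against 0.772 in DUKsi without pool 5 and 1.73 with pool 5 at 48.4, settings chosen after its value was seen. The SD between the arrays of a pool was 0.262 over all pools with DUKsi pool 5 included, whose arrays lay by far the farthest apart on this scale. Next were those of FL1 pool 1, at 2555 and 3107. On the linear scale the spread was not wider in DUKsi, with an SD of 519 in FL1 and 468 in DUKsi. The low value of DUKsi pool 5 was seen on both of its arrays, at 20.1 and 46.2, both under 48.4. Dixon's ratio sets the gap between the outermost pool and its neighbour against the whole range. It was 0.453 in DUKsi, for the high pool 1, and 0.249 in FL1, both under the 95% critical value for 6 pools.

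**Figure D2:**
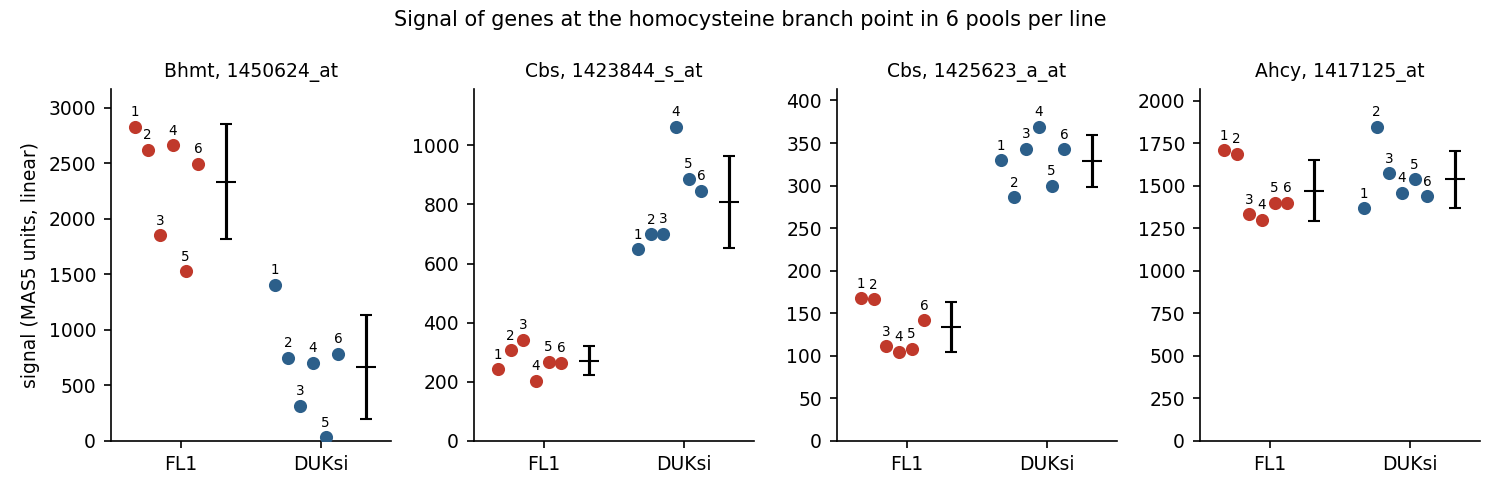
Signal (y axis, MAS5 units, linear, from 0) of Bhmt, both probe sets of Cbs and Ahcy in each pool, as numbered points for FL1 (left) and DUKsi (right), with the mean and SD of 6 pools as a bar beside the points. Bhmt runs from 1528.5 to 2831 in FL1 and from 33.2 to 1406 in DUKsi, Cbs is lower in all FL1 pools in both panels, and Ahcy overlaps.

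Luteal markers differed along with Bhmt. The mean of their summed signal was 1.57 times as high in FL1 as in DUKsi, and the ratio of Bhmt was 3.51. The sum is carried by a few bright genes, and single markers had ratios of 1.20 (Hsd3b1, a steroid dehydrogenase gene) to 3.24 (Hsd17b7, of the same kind), with 3.13 for the prostaglandin receptor gene Ptgfr. The median log2 fold change of the 9 markers was 1.26. Within DUKsi, pool 5 was lowest and pool 1 highest both in Bhmt and in the luteal sum. Within FL1, pool 5 was lowest in both, but pool 1, the highest in Bhmt, had the second lowest luteal sum. The part of luteal cells in the difference of Bhmt was not tested. Of 8 liver markers 0 rose and 0 fell with limma (1 at an unadjusted p under 0.05), and their sum was 357 to 861 in FL1 and 355 to 611 in DUKsi. Averages of 5 of them were under 48.4 in both lines, among them the fibrinogen gene Fgb at 2.96 in FL1 and 3.10 in DUKsi. The albumin gene Alb averaged 136 in FL1 and 167 in DUKsi, Cyp2e1 227 in FL1 and 210.3 in DUKsi, and Apoa2, an apolipoprotein gene, 68.12 in FL1 and 36.04 in DUKsi (adjusted p = 0.156). Cyp2e1 was highest within FL1 in pool 2, at 619.6, where Fabp4 of fat cells was highest as well, at 1427. The part of liver cells was not tested.

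The 3 genes whose log2 signals, centred within each line, were most correlated with Bhmt over the 12 pools were Plin5, Avpi1 and Fdx1. They were the highest among all genes with a probe set brighter than the median, and they share pools and arrays with Bhmt, so the coefficients are given as a description. Plin5, which encodes a lipid droplet protein, had r = 0.978 and rho = 0.923. Leaving out DUKsi pools 5 and 1, the farthest from their line in Bhmt, lowered r to 0.854. Avpi1, a gene induced by vasopressin, had r = 0.959 and rho = 0.797, with r = 0.712 without these pools. Fdx1, whose ferredoxin passes electrons to steroid hydroxylases and which is on the luteal list, had r = 0.958 and rho = 0.776, with r = 0.665 without them.

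Each of these genes had its lowest signal in DUKsi pool 5, like Bhmt. Plin5 had a lowest, median and highest pool of 249, 428 and 457 in FL1 and 35.2, 210.5 and 402 in DUKsi. Avpi1 had 378.5, 594 and 705 in FL1 and 39.2, 218 and 338 in DUKsi. Fdx1 had 15050.0, 16052 and 16589 in FL1 and 8171, 11792 and 13738 in DUKsi. The lines overlapped in Plin5 but not in Avpi1 or Fdx1. Only Fdx1 of the 3 passed the test between the lines (log2 fold change 0.48, adjusted p = 0.00590). This call was lost without any one of 8 pools, at an adjusted p of up to 0.0161, and under quantile normalization (0.0327). Plin5 and Avpi1 had 1.18 (adjusted p = 0.114) and 1.60 (adjusted p = 0.0206), and without DUKsi pool 5 Avpi1 passed (adjusted p = 0.00101).

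**Figure D3:**
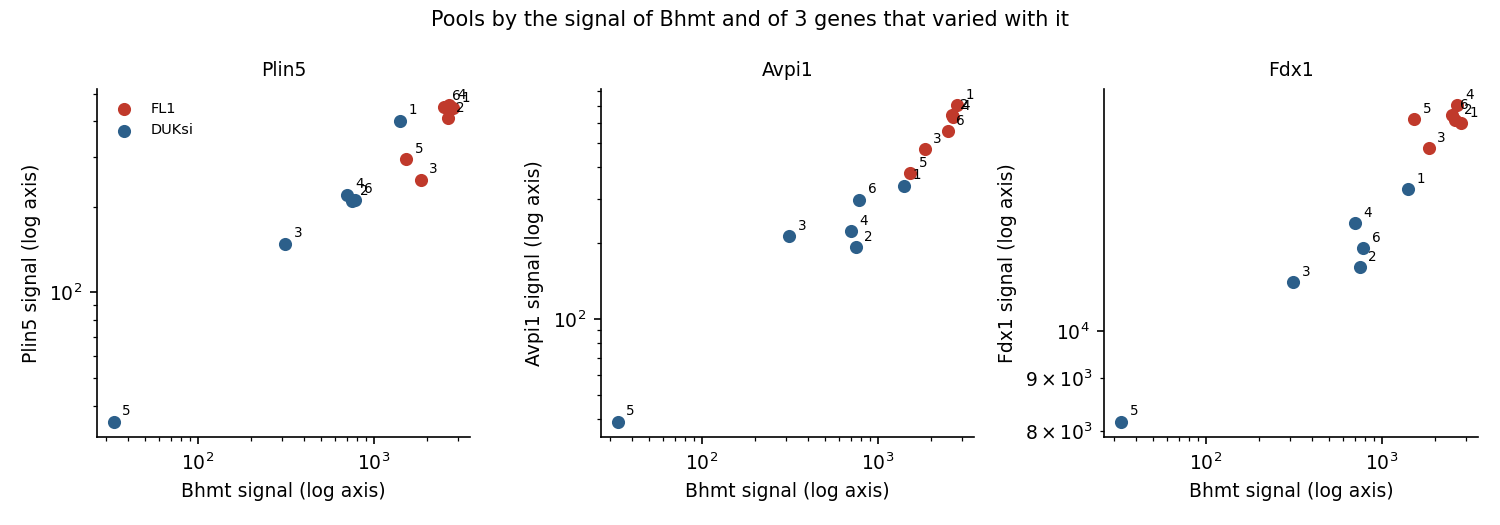
Signal of Plin5, Avpi1 and Fdx1 (y axes, log scale) against that of Bhmt (x axis, log scale), a numbered point per pool of FL1 (red) and DUKsi (blue). DUKsi pool 5, with a Bhmt signal of 33.2, is at the lower left of each panel, at 35.2 for Plin5, 39.2 for Avpi1 and 8171 for Fdx1.

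Cbs encodes cystathionine beta-synthase, which joins homocysteine to serine and so opens the way to cysteine. Its probe set 1423844_s_at had a lowest, median and highest pool of 202, 266 and 342 in FL1, against 649, 774 and 1063.5 in DUKsi. The ratio of the means, 271 (SD 48.8) in FL1 and 808 (SD 156) in DUKsi, was 0.335, and the log2 fold change was -1.58 (SE 0.139, adjusted p = 2.62e-06). On the linear scale the gap between the lines, from 342 to 649, was wider than the range within FL1 but narrower than that within DUKsi.

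The probe set 1425623_a_at of Cbs had a lowest, median and highest pool of 105, 126 and 168 in FL1, against 286, 336 and 369 in DUKsi. Here as well all FL1 pools were below all DUKsi pools. The ratio was 0.406 and the log2 fold change -1.33 (SE 0.145, adjusted p = 2.42e-05). With each pool left out in turn both probe sets passed, at log2 fold changes of -1.65 to -1.49 and -1.40 to -1.26. The difference between their log2 fold changes was -0.25 (exact permutation test, two-sided, p = 0.195, and 0.536 after adjustment over the 18 pairs of probe sets of 1 member). DUKsi pool 5, the lowest in Bhmt, was the second highest DUKsi pool in 1423844_s_at, at 887, and the second lowest in 1425623_a_at, at 300 (299.6).

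Along with Cbs, the mean summed signal was lower in FL1 for markers of granulosa cells (ratio 0.812), oocytes (0.813) and theca cells (0.827). The theca sums overlapped, at 9799 to 12413 in FL1 and 11095 to 15239 in DUKsi, and 0 of 5 theca markers passed. Cyp17a1, Gli1 and Ptch1 had log2 fold changes of -0.62, -0.26 and -0.19, and Tcf21 and Enpep had 0.12 and 0.020. The 2 of 8 granulosa markers that fell were Ccnd2, which encodes the cell cycle regulator cyclin D2 (log2 fold change -0.74, adjusted p = 0.000639), and Inhba, a subunit gene of activin and inhibin A (-0.52, adjusted p = 0.000646). Amh, the gene of anti-Müllerian hormone, had a log2 fold change of 0.27 in the other direction (adjusted p = 0.191). The part of these cells in the difference of Cbs was not tested. From pool to pool within the lines, the genes most correlated with the brighter probe set of Cbs were Rhoq, which encodes a small GTPase (r = 0.940, rho = 0.923), Usp49, which encodes a deubiquitinase (r = 0.906, rho = 0.881), and Flt4, a receptor gene of lymphatic endothelium (r = 0.901, rho = 0.881). Both probe sets of Cbs correlated with each other at r = 0.21, so that this likeness is one of 1423844_s_at. Without DUKsi pool 4 and FL1 pool 4, the farthest in this probe set, r was 0.956, 0.919 and 0.897. These 3 did not pass between the lines, at log2 fold changes of -0.012, -0.068 and 0.093.

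The genes beside Bhmt and Cbs were taken in RefSeq order on GRCm38.p6, 3 measured genes on each side. Beside Bhmt lie Tent2, Homer1, Jmy, Bhmt2, Dmgdh and Scamp1, of which 0 passed with limma, with 0 at an unadjusted p under 0.05 and log2 fold changes from -0.20 to 0.37. Dmgdh encodes the mitochondrial enzyme for dimethylglycine, the product that betaine leaves behind, and was dim at 20.1 in FL1 and 22.3 in DUKsi. Beside Cbs lie Wdr4, Ndufv3, Pknox1, U2af1, Cryaa and Sik1, of which 0 passed as well (2 at an unadjusted p under 0.05). Pknox1, a homeobox gene next to Cbs, was nearest to the threshold, with a mean of 204 in FL1 pools and 300.5 in DUKsi pools. Its log2 fold change was -0.58 at an adjusted p of 0.0240, and without FL1 pool 3 it passed, at 0.00815.

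Ahcy encodes the hydrolase that releases homocysteine from S-adenosylhomocysteine. Its lowest, median and highest pools were at 1299.6, 1399 and 1706.5 in FL1 and at 1365.5, 1499 and 1846 in DUKsi. The ranges of the lines overlapped. The log2 fold change was -0.065 with a 95% interval from -0.25 to 0.12 (adjusted p = 0.736). Ahcy had the lowest SD between the arrays of a pool of all 20 probe sets, 0.0799 on the log2 scale.

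Bhmt2 encodes a relative of Bhmt that uses S-methylmethionine in place of betaine. Its pools were at 2.15 to 17.6 in FL1 and 1.95 to 13.95 in DUKsi for 1418913_at, and at 2.65 to 13.25 in FL1 and 2.45 to 12.75 in DUKsi for 1418914_s_at. All of these are under 48.4, and a difference was not detectable at such signals. Between the arrays of a pool the SD was 1.04 and 1.34 on the log2 scale.

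Among the folate enzymes, 0 of 13 probe sets of Mthfd1, Mthfd2, Shmt1 and Shmt2 passed with limma, and 1 had an unadjusted p under 0.05. Mthfd1 encodes the cytosolic enzyme with 3 activities that interconverts folate one-carbon forms. In 1415916_a_at its lowest, median and highest pools were 949, 1229 and 1306 in FL1 and 988, 1211 and 1474.5 in DUKsi. The ranges lay over each other, and the 95% interval of the log2 fold change was -0.23 to 0.21. The other probe sets of Mthfd1 had -0.23 for 1415917_at (adjusted p = 0.395) and -0.097 for 1436704_x_at (adjusted p = 0.856).

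Mthfd2 encodes the mitochondrial dehydrogenase and cyclohydrolase of the folate cycle, an enzyme typical of dividing cells. Probe set 1419253_at had a lowest, median and highest pool of 409, 635 and 889.9 in FL1 and 500.0, 649 and 756 in DUKsi. Probe set 1419254_at had 464, 673 and 795 in FL1 and 488, 562 and 648 in DUKsi. In both, FL1 pools ranged more widely than DUKsi pools and enclosed them, and the log2 fold changes were -0.068 (adjusted p = 0.871) and 0.20 (adjusted p = 0.435).

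The probe sets of Mthfd2 moved in opposite directions between some FL1 pools. The log2 signal of 1419253_at minus that of 1419254_at was -0.95, -0.69, 0.94, 0.30, -0.026 and -0.068 in FL1 pools 1 to 6, and it ran from -0.13 to 0.37 in DUKsi pools. FL1 pool 3, at 0.94, was highest in 1419253_at and lowest in 1419254_at of its line, and had the highest actin ratio. FL1 pools 1 and 2, at the other end, had the lowest actin ratios of FL1, 1.32 each, but DUKsi pools had ratios as low or lower and no such values. The part of RNA integrity in this was not tested. Between the arrays of a pool the SD was 0.452 for 1419253_at and 0.0929 for 1419254_at on the log2 scale.

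**Figure D4:**
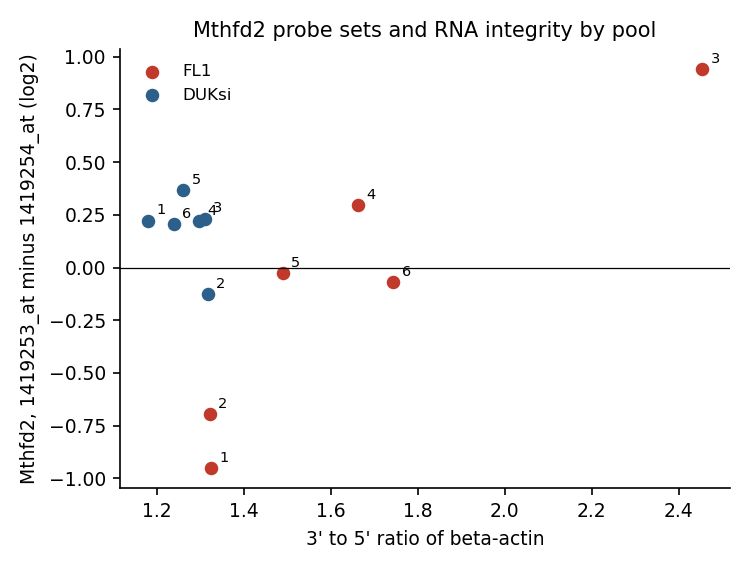
Log2 signal of Mthfd2 probe set 1419253_at minus that of 1419254_at (y axis) against the 3' to 5' ratio of beta-actin (x axis), a numbered point per pool of FL1 (red) and DUKsi (blue). FL1 pool 3 is at the upper right, at 0.94 and a ratio of 2.45, FL1 pools 1 and 2 are at the bottom, at -0.95 and -0.69, and DUKsi pools lie between -0.13 and 0.37.

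Shmt1 and Shmt2 encode the cytosolic and the mitochondrial serine hydroxymethyltransferase, which splits serine into glycine and a one-carbon unit. The 4 probe sets of Shmt1 had log2 fold changes of -0.65 (1422198_a_at), -0.28 (1425177_at), 0.023 (1425178_s_at) and -0.31 (1425179_at), at adjusted p of 0.233 to 0.950. In 1422198_a_at FL1 pools were spread from 26.0 to 126 and DUKsi pools from 106 to 137, and without FL1 pool 6, the lowest, the log2 fold change was -0.33. It was -0.27 with the actin ratio as a covariate. In 1425179_at FL1 pool 3 lay far from its line, at 136 against 211 to 246 in the other FL1 pools, with DUKsi pools at 218 to 290.4. On linear signals FL1 pool 3 was the only pool of a member past Dixon's critical value (ratio 0.684), and without it the log2 fold change was -0.19.

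The 4 probe sets of Shmt2 had log2 fold changes of -0.17 (1426423_at), -0.28 (1434204_x_at), -0.00042 (1455084_x_at) and 0.23 (1455985_x_at), at adjusted p of 0.523 to 0.999. In 1455084_x_at the lowest, median and highest pools were 647, 684 and 737.5 in FL1 and 599, 668 and 793 in DUKsi, with a 95% interval of the log2 fold change from -0.18 to 0.17. The suffixes _s_at and _x_at mark probe sets that may bind more than 1 transcript. Of the 18 pairs of probe sets of 1 member, 0 differed in their line difference by exact permutation, with 0 at an unadjusted p under 0.05. Within the lines, probe sets of 1 gene correlated at r = -0.56 (1415917_at and 1436704_x_at of Mthfd1) to 0.86 (1426423_at and 1434204_x_at of Shmt2) over the 12 pools.

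Psph encodes phosphoserine phosphatase, the last of the enzymes that make serine from a glycolytic intermediate. Its lowest, median and highest pools were at 209, 229.8 and 291 in FL1, against 163, 196 and 204 in DUKsi. The lines did not overlap, but FL1 pool 5 and DUKsi pool 2 were close. The means were 241 (SD 34.1) in FL1 and 189 (SD 16.7) in DUKsi. The log2 fold change of 0.34 (SE 0.118, 95% interval 0.093 to 0.60) did not pass, at an adjusted p of 0.101.

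The enzymes upstream of Psph were looked at from the list of serine and glycine genes. Psat1, the aminotransferase before Psph, rose in FL1. In 1451064_a_at its lowest, median and highest pools were at 487, 512 and 526 in FL1, against 314, 339 and 352 in DUKsi. The pools of each line were close together and the lines well apart (log2 fold change 0.59, SE 0.0703, adjusted p = 6.01e-05). A dimmer probe set of Psat1, 1454607_s_at, had 0.24 and did not pass (adjusted p = 0.430).

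Phgdh, the dehydrogenase gene of the first step, was taken up after its values had been seen, and its 4 probe sets gave different results. The brightest, 1426658_x_at, had a lowest, median and highest pool of 948, 1460.0 and 1837 in FL1 and 686, 967 and 1208 in DUKsi, with overlap (log2 fold change 0.54, adjusted p = 0.0443, and 0.00805 without FL1 pool 2). In 1454714_x_at they were 677, 776 and 963 in FL1 and 146, 172 and 264 in DUKsi. Here the lines were far apart, with a ratio of 4.29 (log2 fold change 2.12, SE 0.134, adjusted p = 5.90e-08). The remaining probe sets had 0.16 (1437621_x_at, adjusted p = 0.494) and -0.13 (1456584_x_at, adjusted p = 0.582). The differences between these probe sets were not tested.

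**Figure D5:**
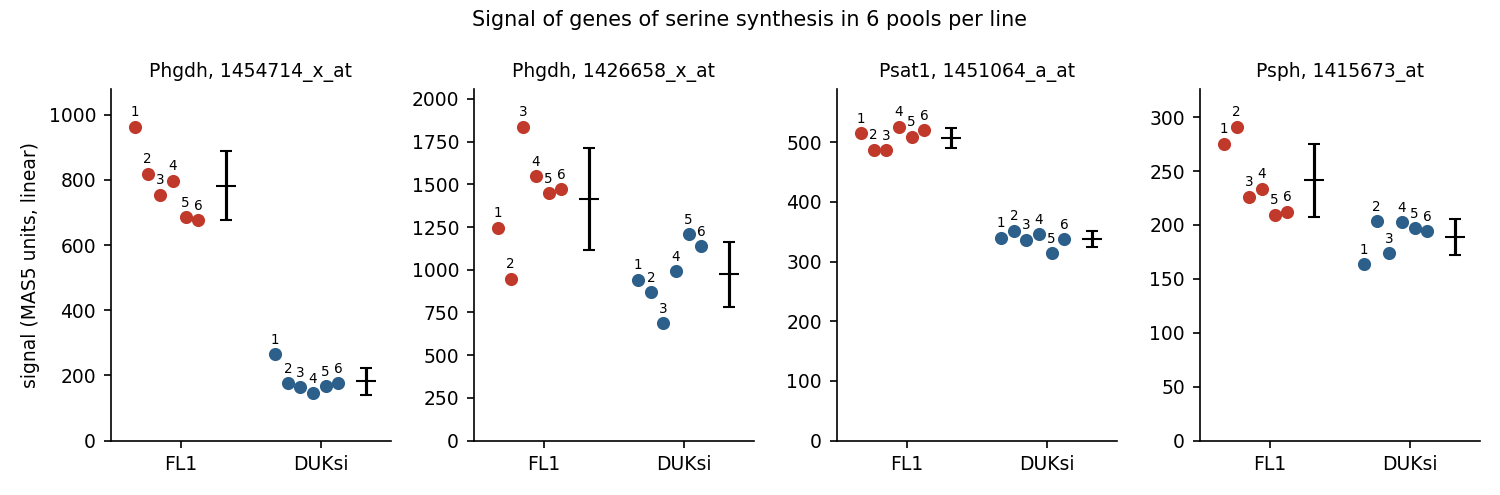
Signal (y axis, MAS5 units, linear, from 0) of a pair of probe sets of Phgdh, of Psat1 and of Psph in each pool, as numbered points for FL1 (left) and DUKsi (right), with the mean and SD of 6 pools as a bar beside the points. The lines do not overlap in Phgdh 1454714_x_at, Psat1 and Psph, and they overlap in Phgdh 1426658_x_at.

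Around the members, 67 of 85 listed genes of the same pathways were measured, each by its brightest probe set. In FL1 2 rose, 1 fell and 64 did neither, while 3.74% of all genes measured in this way passed, 2.08% upward and 1.65% downward. At an unadjusted p under 0.05 there were 17 of 67, against 20.6% of all genes. Under the plain t-test of the methods, run on linear values, Psat1 alone passed. The median log2 fold change was -0.099 over the 67 genes and -0.048 over all genes.

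Besides Psat1, the gene that rose was Aldh1l1, whose enzyme removes one-carbon units from cytosolic folate as carbon dioxide. In 1424400_a_at its lowest, median and highest pools were at 487, 576 and 786 in FL1, against 289, 339 and 408 in DUKsi, without overlap. The log2 fold change was 0.84 (SE 0.128, adjusted p = 0.000589), whereas the dimmer probe set 1424401_at had -0.26 (adjusted p = 0.653). Slc6a9, which encodes a glycine transporter, fell. Its lowest, median and highest pools were at 693, 779 and 857 in FL1, against 918, 987 and 1138 in DUKsi, without overlap. The log2 fold change was -0.36 (SE 0.0742, adjusted p = 0.00660). This call was lost without any one of 7 pools, at an adjusted p of up to 0.0192, on the first or second arrays alone (0.0134 and 0.142) with arrays scaled to the same median (0.0432), with the actin ratio as a covariate (0.0154) and with limma without the trend (0.0211). The dimmer probe set 1431812_a_at had -0.49 and did not pass (adjusted p = 0.0576).

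The counts by list were as follows. In the folate cycle and transport 1 of 10 measured genes rose and 0 fell, and in serine and glycine metabolism 1 of 12 rose and 1 fell. In the methionine cycle and transsulfuration 0 of 14 passed (1 at an unadjusted p under 0.05), with Ahcyl1, a relative of Ahcy, at a log2 fold change of -0.035 and Mat2b, the regulatory subunit of methionine adenosyltransferase, at 0.13. Of 8 genes of methionine salvage and polyamines 0 passed (3 unadjusted), with Odc1, the first enzyme of polyamine synthesis, at -0.18 and the spermidine synthase gene Srm at -0.29. The probe sets of Odc1 differed, since the dimmest, 1427364_a_at, rose (0.66, adjusted p = 0.000254) while 1437711_x_at had -0.47 (adjusted p = 0.0228). Of 9 genes of methyl acceptors and methyltransferases 0 passed (4 unadjusted), with the maintenance DNA methyltransferase gene Dnmt1 at -0.18 and the arginine methyltransferase gene Carm1 at 0.038. Betaine and choline genes had 0 of 10 past the test (2 unadjusted), with the choline transporter genes Slc44a1 at 0.093 and Slc44a2 at 0.13. Purine synthesis genes had 0 of 4 (0 unadjusted), with Paics at 0.13 and Gart at -0.096.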

How the data were processed

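Ovary RNA had been hybridized to Affymetrix MOE 430A arrays, 2 for each of the 12 pools. Per the labels and methods, the authors computed the deposited signals (intensity, linear scale) with Microarray Suite 5.0 (MAS5) and scaled each array to a common target. Here the 2 arrays of a pool were averaged, log2 was taken, and the lines were compared in R 4.3.3 with limma 3.58.1 (trend of variance on mean). The 64 controls were left out, and the median signal of an array was 212 to 244.5. Replicates are pools, and their number limits the precision. The platform annotation gives 1 gene for 20380 probe sets, several for 691 and none for 1555.

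The members, lists and tests were chosen with earlier results of these data known. Named were all probe sets of the members, in each list up to 3 genes with the largest log2 fold change among those that passed or the 2 brightest where 0 did, 3 measured genes on each side of Bhmt and Cbs, and the 3 most like each in the pools. Not all genes so named in the marker lists are given. Phgdh, Sat1 and some further genes of the lists were named after their values had been seen. Single measures were tested by exact permutation over pools. The procedure was tested on simulated signals. Alternatives were the first or second arrays alone, averaging after log2, a fit to the 24 arrays with pool as random effect, quantile or median scaling, an added constant, a filter on dim probe sets, the methods' t-test, limma without the trend or robust, the actin ratio as a covariate, the pool number as a block, other thresholds and the omission of pools.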

Additional observations from a re-analysis of the deposited data

Results flagged for a closer look

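Dixon's ratio was computed for each line in 78 probe sets of the members and of other named genes, 156 groups of 6 pools, and 8 groups had a pool far from the rest. Chance flags about 1 in 20 such groups. In the 40 groups of members there was 1, Shmt1 1425179_at in FL1 pool 3, at 136 against 211 to 246 in the rest of FL1. That pool also had the highest actin ratio, and the part of RNA integrity was not tested. In Phgdh 1454714_x_at DUKsi pool 1 was high, at 264 against 146 to 177 in the rest of DUKsi, a value still below all FL1 pools. Sat1, which encodes an acetyltransferase of polyamines and was named after its values were seen, was high in FL1 pool 4, at 850.4 against 646 to 716. Its lines did not overlap, with FL1 above, but it did not pass with limma (log2 fold change 0.33, adjusted p = 0.0340). The choline transporter gene Slc44a2 was low in DUKsi pool 1, at 839 against 1206 to 1372, and U2af1, a splicing factor gene beside Cbs, was low in FL1 pool 2, at 1994 against 2443 to 2693. Some markers of other tissues were high in single pools. Ovgp1 of the oviduct had 3462 in DUKsi pool 4 against 205 to 330.2 in the rest of DUKsi. In FL1 pool 2, Fabp4 of fat cells had 1427 against 86.8 to 164 and Cyp2e1, on the liver list, had 619.6 against 101 to 229.8 in the rest of FL1. Alb, also on the liver list, had 113 in that pool. Within DUKsi, pools 1 and 4 were highest in Cyp2e1, at 306 and 316.5, and in Fabp4, at 960 and 560. The tissue behind the Cyp2e1 signal was not tested.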

How the results depend on the processing

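Both probe sets of Cbs passed in all settings run, and neither Cbs nor Bhmt changed direction. Bhmt passed with all 24 arrays (adjusted p = 0.00127), with the methods' t-test on linear values (0.00809), at a threshold of 0.05 and without DUKsi pool 5. Pools of the same number did not deviate together between the lines (r from -0.26 to 0.17). So few correlations cannot settle whether they share more than a number, such as a day of processing. With the pool number as a replicate block 564 probe sets passed, 3 of them of members, with Bhmt at an adjusted p of 0.00931, and 2 of the pathway genes, since Slc6a9 did not (adjusted p = 0.0466).

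Of all probe sets 764 passed, against 468 on the second arrays, 507 with the methods' t-test on linear values, 1218 with the actin ratio as a covariate, 1278 with all 24 arrays and 1564 at a threshold of 0.05. In FL1 413 of the 764 were higher and 351 lower, against 634 and 229 with arrays scaled to the same median. Of the pathway genes 3 passed, against 1 with the methods' t-test on linear values and 6 with all 24 arrays, at a threshold of 0.05 or by any probe set of a gene, which adds Odc1, Slc46a1 and Phgdh. Leaving out each pool gave 2 to 3 member probe sets, 573 to 943 of all probe sets, 2 to 3 pathway genes, 0 pairs of probe sets that differed and a difference in actin ratio of 0.241 to 0.468. The count of far pools among members was 1, against 2 on log2 signals, 0 on the first arrays and 4 on the second, alternatives chosen after seeing the data.

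Some log2 fold changes that did not pass changed sign. On the second arrays they were -0.25 for Bhmt2 1418913_at, 0.046 for Mthfd1 1415916_a_at, 0.050 for Mthfd2 1419253_at, -0.035 for Shmt1 1425178_s_at, -0.0026 for Phgdh 1437621_x_at, 0.11 for Phgdh 1456584_x_at and 0.55 for Aldh1l1 1424401_at. On the first arrays they were 0.066 for Mthfd1 1436704_x_at and 0.075 for Shmt2 1455084_x_at. With the same median they were 0.023 for Ahcy, 0.080 for Mthfd1 1415916_a_at, 0.022 for Mthfd2 1419253_at and 0.089 for Shmt2 1455084_x_at. Quantile normalization gave 0.027 for Mthfd1 1436704_x_at and 0.018 for Shmt2 1455084_x_at, which had 0.0076 with the mean of log2 values and with all 24 arrays. With the actin ratio as a covariate they were 0.030 for Ahcy, -0.066 for Shmt1 1425178_s_at and 0.027 for Shmt2 1426423_at, and without FL1 pool 3 and DUKsi pool 4 -0.020 for Shmt1 1425178_s_at. With each pool left out they ran from -0.063 to 0.055 for Mthfd1 1415916_a_at, -0.19 to 0.052 for Mthfd1 1436704_x_at, -0.18 to 0.045 for Mthfd2 1419253_at, -0.058 to 0.13 for Shmt1 1425178_s_at and -0.039 to 0.042 for Shmt2 1455084_x_at. The cause was not tested. Low signal limits what can be said of Bhmt2.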
